A study of Mus musculus with 18 samples.

Results

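Cholesterol that a cell makes or takes up can leave it again. The genes of that outward route were followed here in samples prepared as mouse retinal pigment epithelium (RPE), the pigmented cell layer behind the retina. The 10 genes were fixed by symbol: *Nr1h2* and *Nr1h3*, *Abca1*, *Abcg1*, *Apoe*, *Mylip*, *Lpcat3*, *Soat1*, *Scarb1* and *Cyp27a1*. All 10 were found among the 52636 genes of the count table, and all 10 passed the filter on low counts in every comparison. The question was whether they rise when the nuclear, active form of SREBP2 (nSREBP2) raises sterol synthesis.

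Sterol synthesis and sterol efflux are known to be controlled in opposite directions. SREBP2 is a transcription factor that is released from the membrane when sterols are scarce and turns on the genes of cholesterol synthesis and LDL uptake. The liver X receptors (LXR), which pair with RXR, bind oxysterols and desmosterol, and turn on transporters that pass cholesterol to apolipoprotein particles. The gene of SREBP2 also carries the microRNA miR-33 in an intron, which is known to repress *Abca1* and *Abcg1*. The RPE handles lipid from shed photoreceptor tips and exports sterols towards the retina and the choroid.

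The study examined how SREBP2 and the endocytic receptor LRP2 in the RPE bear on eye growth. RNA-seq was made from the RPE of C57BL/6 mice at postnatal day 14, in 6 groups of 3 libraries, and each library came from both eyes of 1 mouse. The Uninjected eyes received no virus. The other groups received AAV8 virus in which the *Best1* promoter, chosen for the RPE, drove GFP, nSREBP2, a hairpin against LacZ (ctrl sh) or a hairpin against *Lrp2* (*Lrp2* sh1 and *Lrp2* sh2). The virus was injected beneath the retina of newborn mice. The RPE was taken with papain from eyecups freed of retina and optic nerve, and the pigmented cells were loosened from the sclera and moved to a clean tube. The published comparisons are nSREBP2 versus GFP and each *Lrp2* hairpin versus ctrl sh, so the hairpin comparisons share their 3 control libraries.

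Libraries held 8921885 to 13696934 counts on genes, and levels are given in CPM, the counts of a gene scaled to 1e+06 counts per library after TMM normalization. Of 7 RPE markers, 6 were lower with GFP than in Uninjected libraries and 0 with ctrl sh (edgeR, with 6 at an unadjusted *P* under 0.05 and 1 by DESeq2). Their summed level was 2336 to 7071 CPM in Uninjected, 160.3 to 261.1 CPM with GFP, 180.1 to 274.4 CPM with nSREBP2, 1368 to 3214 CPM with ctrl sh, 1056 to 1850 CPM with *Lrp2* sh1 and 220.7 to 507.6 CPM with *Lrp2* sh2, so ctrl sh overlapped Uninjected. *Rpe65*, the visual cycle isomerase, had 371 to 1115 CPM in the Uninjected libraries, against 1.07 to 2.29 CPM with GFP, 2.44 to 3.76 CPM with nSREBP2 and 1.77 to 97.8 CPM with ctrl sh. With *Lrp2* sh1 it had 3.56 to 44.1 CPM and with *Lrp2* sh2 3.51 to 15.7 CPM. In bulk samples, fewer cells of a type and less RNA per cell cannot be told apart. The mice also differed in sex by Y-linked genes and *Xist*: the 3 nSREBP2 libraries, 1 Uninjected library and 2 *Lrp2* sh2 libraries were male, and all others were female. Sex and nSREBP2 therefore cannot be told apart within the nSREBP2 and GFP libraries, and a fit of all 18 libraries with sex as a term is given where it changes a call. That term rests on the Uninjected and *Lrp2* sh2 groups, the groups that hold both sexes.

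The sequences are shown first: the miR-33 seed and its matches in the efflux genes, and then promoter windows searched for letters known from SREBP and LXR sites. The mature mmu-miR-33-5p lies at chr15:82198127-82198147 (RefSeq, GRCm38.p6, plus strand) within the SREBP2 gene. Its seed, bases 2 to 8, is in capitals, and the letters in capitals in the lines of *Abca1* and *Abcg1* are the DNA complement of that seed, CAATGCA, in their 3′ UTRs. The *Abca1* stretch is at chr4:53033783-53033812 (minus strand) and the *Abcg1* stretch at chr17:31114998-31115022 (plus strand) of GRCm38.
mmu-miR-33-5p: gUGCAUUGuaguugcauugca
*Abca1*: tattCAATGCAATGCActtCAATGCAacga
*Abcg1*: aacgCAATGCAacgCAATGCAgaca

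*Abca1* held 3 such sites and *Abcg1* held 2, and the annotated 3′ UTRs of the other 8 genes held none. Of 21020 mouse genes with a 3′ UTR, 1496 (7.12%) held a site. The read count of the miR-33 hairpin gene itself (*Mir33*) was 0 in every nSREBP2 and GFP library, which allows up to 3 counts, and 2 counts were found in ctrl sh replicate 2 and in *Lrp2* sh2 replicate 2. These libraries were made for long RNA, so the mature microRNA was not measured.

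Promoters of 300 bases, from 250 before to 50 after the start, were given by RefSeq (GRCm38.p6) for 8 of the 10 genes. They are shown for *Abca1*, the classical LXR target, and *Lpcat3*, which was picked because its change with nSREBP2 was the largest of the 10. The *Abca1* promoter is chr4:53159846-53160145 (minus strand) and the *Lpcat3* promoter chr6:124662854-124663153 (plus strand). Capitals in *Abca1* mark, in order, GTGGGG read on the other strand, the E-box CACGTG and a relaxed LXR repeat, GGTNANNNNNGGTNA, also on the other strand.
*Abca1*: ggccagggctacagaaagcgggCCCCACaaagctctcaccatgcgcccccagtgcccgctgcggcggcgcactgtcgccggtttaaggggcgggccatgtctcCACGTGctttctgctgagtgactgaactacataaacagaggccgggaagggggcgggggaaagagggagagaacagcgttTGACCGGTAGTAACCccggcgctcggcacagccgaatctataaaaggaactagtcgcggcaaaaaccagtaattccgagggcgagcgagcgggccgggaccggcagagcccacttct
*Lpcat3*: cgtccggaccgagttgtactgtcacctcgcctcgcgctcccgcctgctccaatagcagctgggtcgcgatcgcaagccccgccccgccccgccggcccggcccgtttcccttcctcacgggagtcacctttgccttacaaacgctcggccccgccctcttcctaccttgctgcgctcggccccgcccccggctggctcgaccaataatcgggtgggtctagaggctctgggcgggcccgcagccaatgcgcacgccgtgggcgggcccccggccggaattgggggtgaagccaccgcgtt

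These letters, and CACCCCAC, whose complement contains GTGGGG, were searched on both strands. The matches in *Abca1* began at −228 (GTGGGG), −147 (E-box) and −67 (relaxed repeat) from its start. Among 32851 mouse promoters of this length, 28.7% held GTGGGG, 7.15% the E-box, 2.87% CACCCCAC and 0.718% the relaxed repeat. GTGGGG was also matched in *Nr1h3*, *Soat1* and promoter 1 of *Apoe*, while promoters 2 and 3 of *Apoe* held no match. The shares are per promoter, and *Nr1h3* and *Apoe* had more than 1. The windows of *Lpcat3*, *Nr1h2*, *Mylip* and *Cyp27a1* held none of these letters, which says nothing about binding.

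Per kilobase of exon, *Apoe* and *Abca1* were the most abundant of the 10. The order is given for the GFP libraries, whose summed RPE markers were low (160.3 to 261.1 CPM), so it describes bulk samples. In the GFP libraries *Apoe* had 320.5 ± 43.4 RPKM (SD, n = 3), *Abca1* 53.3 ± 6.18, *Mylip* 22.5 ± 2.34, *Scarb1* 16.2 ± 0.676 and *Nr1h2* 15.2 ± 1.97 RPKM (each SD, n = 3). They were followed by *Soat1* with 12.8 ± 1.51, *Lpcat3* with 8.80 ± 0.613, *Abcg1* with 5.52 ± 0.614, *Cyp27a1* with 3.83 ± 0.345 and *Nr1h3* with 3.43 ± 0.438 RPKM (each SD, n = 3). The GFP libraries of *Scarb1* and *Nr1h2*, of *Nr1h2* and *Soat1*, and of *Cyp27a1* and *Nr1h3* overlapped, so the order within those pairs is not fixed beyond the spread. Over the 6 groups, mean *Apoe* ranged from 284 to 573.5 RPKM and mean *Abca1* from 45.0 to 62.4 RPKM.

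**Figure D1:**
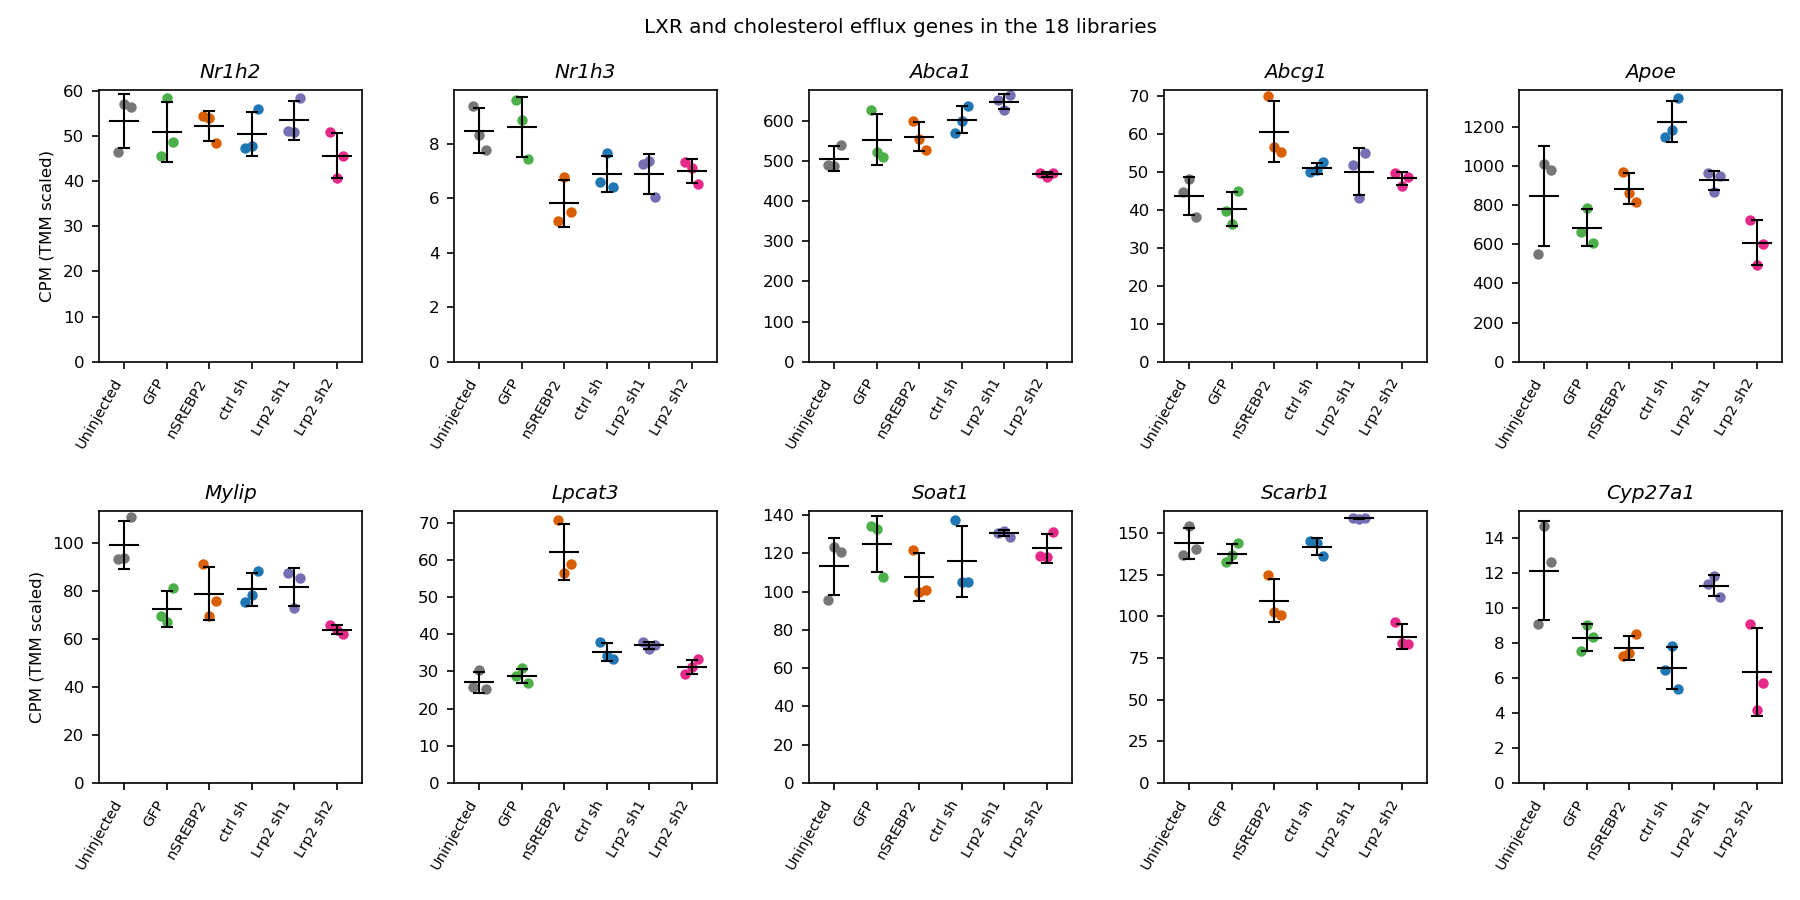
Levels of the 10 genes in the 18 libraries: the vertical axis of each panel is CPM from 0, points are libraries coloured by group, and the bars are the mean and SD of 3 libraries. *Lpcat3* stands at 56.5 to 70.7 CPM in the nSREBP2 libraries and at 25.2 to 37.9 CPM in all others, while *Abca1* overlaps between nSREBP2 and GFP.

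With nSREBP2, every gene of sterol synthesis rose, while the efflux genes were mixed. All 20 genes of cholesterol synthesis were higher in nSREBP2 than in GFP libraries, and their summed level was 1251 to 1612 CPM against 396.5 to 450.5 CPM. Of the 10 LXR and efflux genes, 3 were higher (*Lpcat3*, *Abcg1* and *Apoe*) and 1 was lower (*Scarb1*) at an adjusted *P* under 0.05 (edgeR quasi-likelihood test, 3 against 3 libraries). Among all 17927 genes tested, 12.6% were higher and 8.47% lower by this rule. The median log2 fold change (log2FC) was 0.03 over the 10 genes, −0.02 over all genes tested and 1.75 over the 20 synthesis genes. With an absolute log2FC above 1 as well, which 6.67% of all genes passed, *Lpcat3* was the 1 gene left.

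*Lpcat3* encodes an acyltransferase that places polyunsaturated chains in membrane phospholipids, and it is a known LXR target (chr6:124663027-124704418, plus strand, GRCm38, as in GENCODE M21). It had 70.7, 56.5 and 59.0 CPM in the nSREBP2 libraries and 28.7, 30.8 and 26.8 CPM in the GFP libraries. The groups did not overlap, and the log2FC was 1.11 (SE 0.10, 95% interval 0.89 to 1.32, adjusted *P* = 5.64e-05), a 2.15-fold difference. The Uninjected libraries, with 25.7, 30.4 and 25.2 CPM, lay at the level of GFP. The log2FC kept its call with each library left out (1.01 to 1.16) and under all 8 other settings (1.10 to 1.17). *Emg1*, a ribosome factor whose exons cover 334 bases of *Lpcat3* on the opposite strand, had 25.0 ± 1.89 CPM with nSREBP2 and 24.6 ± 2.33 CPM with GFP (SD, n = 3), a log2FC of 0.02 (adjusted *P* = 0.929, edgeR).

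*Abcg1* and *Abca1*, the transporters that load cholesterol onto mature HDL and onto lipid-poor apolipoprotein A-I, did not go together. *Abcg1* (chr17:31057675-31117988, plus strand) had 70.0, 56.7 and 55.4 CPM with nSREBP2 and 39.7, 36.2 and 45.1 CPM with GFP. All nSREBP2 libraries lay above all GFP libraries, with a log2FC of 0.58 (SE 0.11, 95% interval 0.34 to 0.83, adjusted *P* = 0.00459, edgeR). *Abca1* (chr4:53030787-53159895, minus strand) had 598, 555 and 526.7 CPM with nSREBP2 and 626, 522 and 509 CPM with GFP. These libraries overlapped, and the log2FC was 0.02 (SE 0.09, 95% interval −0.19 to 0.22, adjusted *P* = 0.932, edgeR). Both transporters carry the miR-33 sites shown above. The nSREBP2 virus carried N-terminal coding sequence of SREBP2, and miR-33 lies in an intron of the mouse gene. Virus and mouse transcripts of SREBP2 were not separated and mature miR-33 was not measured. Its part in the levels of *Abca1* and *Abcg1* was therefore not tested. That *Abcg1* passed and *Abca1* did not does not show that their changes differ, and that difference was not tested.

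*Apoe*, the apolipoprotein that carries the exported cholesterol (chr7:19696109-19699188, minus strand), had 971, 864 and 816 CPM with nSREBP2 and 664, 787 and 605 CPM with GFP. The groups did not overlap, but the Uninjected libraries, with 551, 1012 and 978 CPM, spanned both. The log2FC was 0.36 (SE 0.10, 95% interval 0.14 to 0.59, adjusted *P* = 0.0311, edgeR). This call was lost in 4 of 6 fits that left out a library (GFP replicate 1, GFP replicate 3, nSREBP2 replicate 1 or nSREBP2 replicate 2), where the adjusted *P* reached 0.115. It was also lost in a fit of all 18 libraries (0.36, adjusted *P* = 0.161), with sex as a term in that fit (0.39, adjusted *P* = 0.391) and against the Uninjected libraries (0.04, adjusted *P* = 0.905).

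*Scarb1* encodes SR-BI, the HDL receptor that takes up cholesterol esters and can pass free cholesterol either way (chr5:125277087-125341094, minus strand). It had 125, 103 and 101 CPM with nSREBP2 and 132, 137 and 144 CPM with GFP. Every nSREBP2 library lay below every GFP library, with a log2FC of −0.33 (SE 0.09, 95% interval −0.53 to −0.14, adjusted *P* = 0.0213, edgeR). The call was lost when replicate 2 of GFP or replicate 2 or 3 of nSREBP2 was left out (adjusted *P* up to 0.0817) and with sex as a term (−0.22, adjusted *P* = 0.234).

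The receptors themselves did not pass the test. *Nr1h3*, the gene of LXRα (chr2:91184061-91202834, minus strand), had 5.17, 6.80 and 5.48 CPM with nSREBP2 and 9.59, 8.88 and 7.43 CPM with GFP. The groups did not overlap, and the log2FC of −0.57 (SE 0.18, 95% interval −0.98 to −0.16) had an adjusted *P* of 0.054 (edgeR). It passed when all 18 libraries were fitted together (adjusted *P* = 0.0116) and without the filter (adjusted *P* = 0.0455). Annotated exons of *Nr1h3* share 34 bases with *Gm13783* on the same strand. *Nr1h2*, the gene of LXRβ (chr7:44549616-44553951, minus strand), had 48.4 to 54.4 CPM with nSREBP2 and 45.6 to 58.3 CPM with GFP, and its log2FC was 0.04 (SE 0.10, adjusted *P* = 0.842, edgeR).

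The remaining 3 genes overlapped between the groups. *Mylip* (IDOL, a ubiquitin ligase and LXR target, chr13:45389742-45412022, plus strand) had a log2FC of 0.12 (95% interval −0.13 to 0.36, adjusted *P* = 0.509). *Soat1*, which esterifies cholesterol for storage (chr1:156424525-156474331, minus strand), had −0.22 (95% interval −0.45 to 0.01, adjusted *P* = 0.167). *Cyp27a1*, a mitochondrial hydroxylase that makes an oxysterol ligand of LXR (chr1:74713574-74737892, plus strand), had −0.11 (95% interval −0.45 to 0.23, adjusted *P* = 0.677). Against the Uninjected libraries instead of GFP, *Mylip* was lower with nSREBP2 (log2FC −0.36, adjusted *P* = 0.0439), and so was *Cyp27a1* (log2FC −0.67, adjusted *P* = 0.0307).

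Marker genes of other cells moved with nSREBP2. Of 14 macrophage markers, 13 were higher, and their summed level was 1091 to 1281 CPM against 490.4 to 570.5 CPM with GFP. All 8 fibroblast markers were higher (71800 to 87260 against 34900 to 44330 CPM), and 6 of 8 endothelial markers were lower (1305 to 1371 against 1655 to 2130 CPM). Of 12 rod markers 2 were higher (258.8 to 363.2 against 40.92 to 322.5 CPM, with 7 higher at an unadjusted *P* under 0.05). Of 10 tested markers of other retinal cells 3 were higher and 2 lower, of the 7 RPE markers 2 were higher and 2 lower, and 1 of 8 melanocyte and 1 of 5 tested muscle markers were lower. Which of these cells express each of the 10 genes cannot be told from bulk libraries. No marker in these lists was at 0 in all libraries, and the part of these cells in the changes of the 10 genes was not tested.

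**Figure D2:**
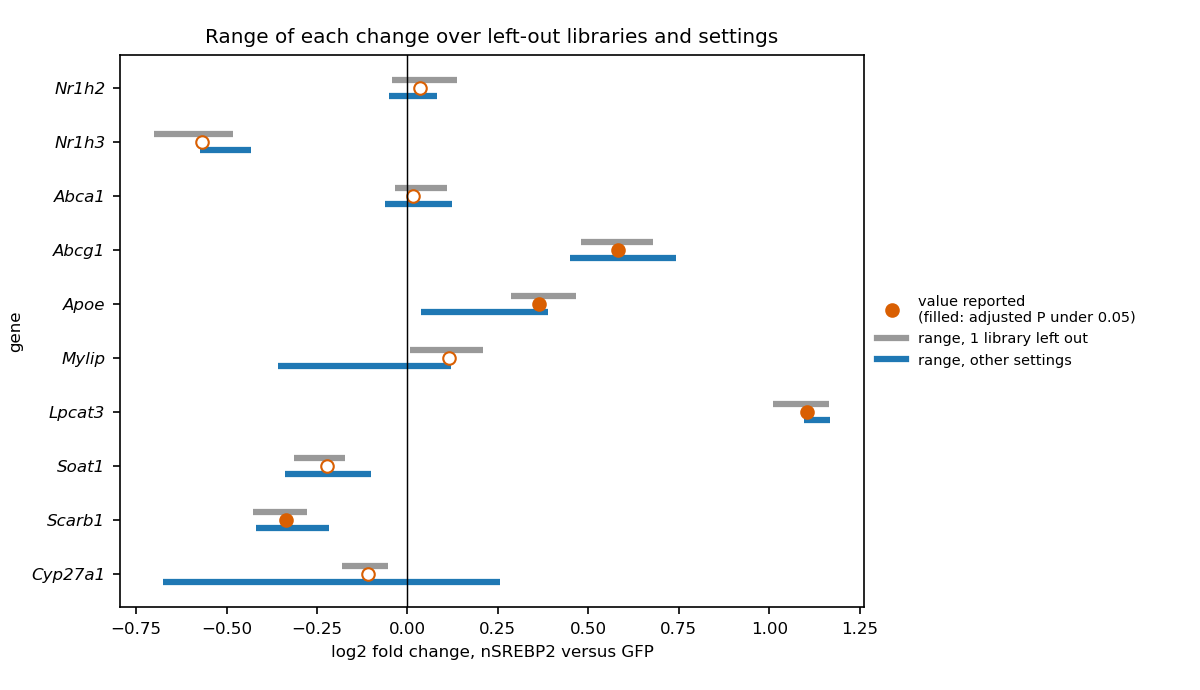
Change of each gene in nSREBP2 versus GFP (points, filled where the adjusted *P* was under 0.05) with its range when 1 library was left out (grey) and under other settings (blue), on the log2 scale. *Lpcat3* and *Abcg1* stay at or above 0.45 throughout, the range of *Apoe* reaches 0.04, and that of *Abca1* lies on both sides of 0.

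Other genes of the sterol pathway also differed between nSREBP2 and GFP libraries. *Srebf2*, the gene of SREBP2, had 217 ± 15.9 CPM with nSREBP2 and 101 ± 15.9 CPM with GFP (SD, n = 3), and virus and mouse transcripts are counted together. *Insig1*, which retains the SREBP complex in the membrane, rose by 2.15 on the log2 scale (adjusted *P* = 2.03e-05, edgeR). Of 9 feedback and LDL uptake genes, 4 were higher and none was lower (edgeR, with 0 lower at an unadjusted *P* under 0.05 and 0 by DESeq2). The 4 include *Srebf2*, where the virus and mouse parts were not separated, so its rise is no evidence of a response. The largest changes in synthesis were those of the reductase *Tm7sf2* (2.68), *Hsd17b7* (2.67), the isomerase *Idi1* (2.55) and *Mvd* (2.36) (log2FC, adjusted *P* at most 8.52e-05 for each, edgeR).

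Genes that move sterols inside the cell were also among those that rose, 8 of 16 by edgeR and 5 by DESeq2, with 1 lower by either. *Stard4*, a carrier of cholesterol between membranes, had 118 ± 21.8 against 31.0 ± 2.54 CPM (SD, n = 3), a log2FC of 1.93 (adjusted *P* = 1.14e-05). The lysosomal proteins *Npc2* (0.48), *Scarb2* (0.47) and the acid lipase *Lipa* (0.36) rose by less. *Scarb2* was also higher with *Lrp2* sh1 (0.52) and *Lrp2* sh2 (0.30), while *Stard4*, *Npc2* and *Lipa* passed with neither hairpin. Of 7 genes of ester storage, *Plin2*, a lipid droplet coat protein, was higher (log2FC 0.63, adjusted *P* = 0.00131), and no other passed. *Plin2* was also higher with *Lrp2* sh2 (0.42) and did not pass with *Lrp2* sh1.

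LXR targets outside the 10 were mixed. Of 11 tested, *Arl4c*, a small GTPase, was higher (37.5 ± 4.36 against 17.97 ± 1.09 CPM, SD, n = 3, log2FC 1.06, adjusted *P* = 0.00011, edgeR), as was the ubiquitin ligase *Rnf145* (0.27), and *Pltp*, the phospholipid transfer protein, was lower (−0.21, adjusted *P* = 0.047, edgeR), a call that DESeq2, with 0 lower in this list, did not make. *Srebf1*, the gene of SREBP1 and a classical LXR target, named here after its values were seen, had a log2FC of 0.14 (adjusted *P* = 0.252, edgeR). Of 11 partners and cofactors, the coactivators *Ncoa3* (−0.34) and *Ncoa1* (−0.32) were lower and none was higher (edgeR, with 1 higher at an unadjusted *P* under 0.05 and 0 by DESeq2). Among 7 tested genes of other transporters and HDL proteins, *Apod* (2.06), the scavenger receptor *Cd36* (0.77) and the *Apoe* receptor *Lrp1* (0.73) were higher. *Apod* was also higher with *Lrp2* sh1 (0.69) and *Lrp2* sh2 (0.92), and *Lrp1* with *Lrp2* sh2 (0.54), while *Cd36* passed with neither hairpin. Of 7 tested oxysterol and bile acid enzymes, 0 passed in either direction (edgeR, with 0 at an unadjusted *P* under 0.05 and 0 by DESeq2).

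**Figure D3:**
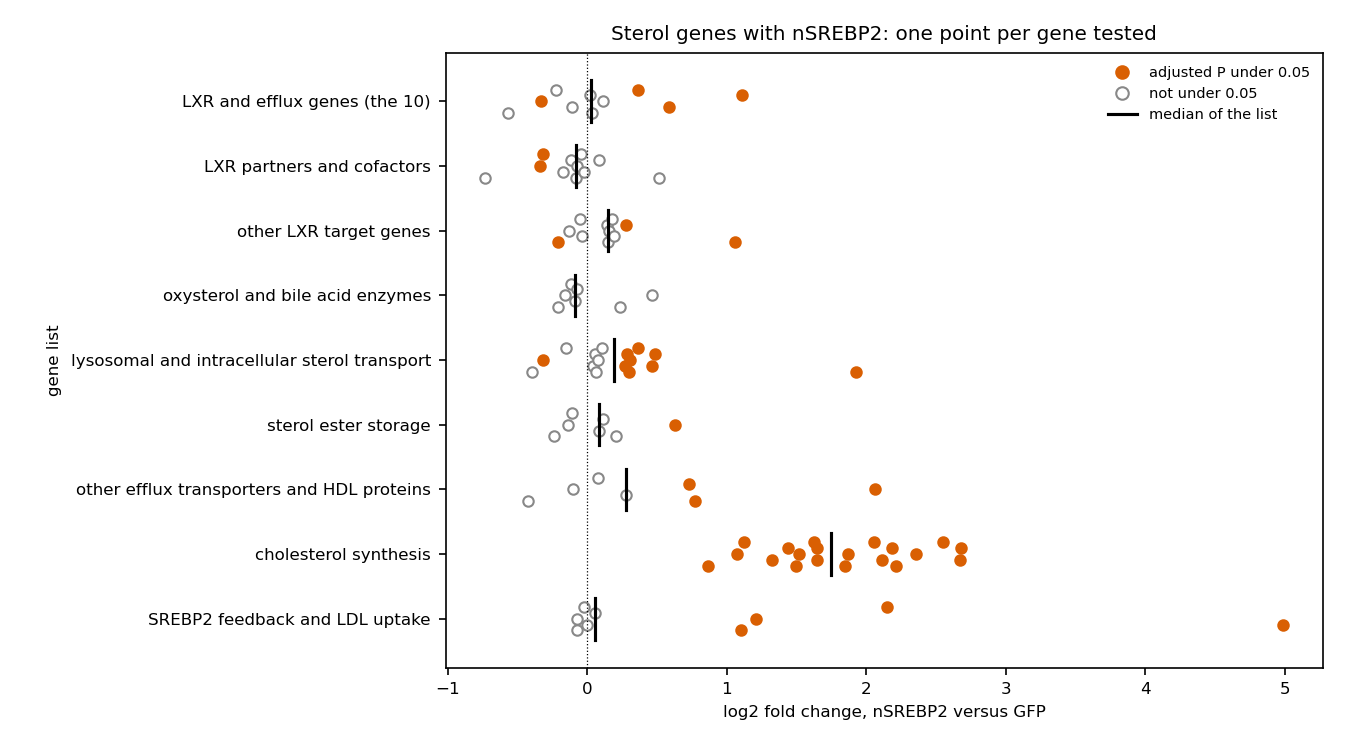
Log2 fold change of each tested gene of the 9 sterol lists in nSREBP2 versus GFP (horizontal axis), with filled points for an adjusted *P* under 0.05 and a bar at the median of each list. The 20 synthesis genes all lie to the right, with a median of 1.75, while the 10 LXR and efflux genes have a median of 0.03.

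With *Lrp2* knockdown, *Apoe* was lower with both hairpins, and the other calls were made with 1 hairpin each. *Lrp2* itself had 29.7 to 42.8 CPM with *Lrp2* sh1, 34.6 to 43.9 CPM with *Lrp2* sh2 and 87.7 to 167 CPM with ctrl sh. It was also low with nSREBP2, at 25.3 to 38.1 CPM against 87.6 to 174.9 CPM with GFP. With *Lrp2* sh1, 1 of the 10 genes was higher (*Cyp27a1*) and 1 lower (*Apoe*), where 3.06% of 17801 genes tested were higher and 2.28% lower. With *Lrp2* sh2 none was higher and 4 were lower (*Apoe*, *Scarb1*, *Abca1* and *Mylip*), where 8.59% of 18089 genes tested were higher and 9.48% lower. For *Lrp2* sh2, 0 of the 10 were also higher at an unadjusted *P* under 0.05 and 0 by DESeq2 (main test edgeR). The 10 genes had a median log2FC of 0.08 with *Lrp2* sh1 (all genes, −0.01) and of −0.15 with *Lrp2* sh2 (all genes, 0.01).

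For *Apoe*, the ctrl sh libraries had 1151, 1182 and 1346 CPM, the *Lrp2* sh1 libraries 963, 869 and 948 CPM and the *Lrp2* sh2 libraries 724, 494 and 604 CPM. No library of a hairpin reached a ctrl sh library. The log2FC was −0.40 (SE 0.08, adjusted *P* = 0.0208) with *Lrp2* sh1 and −1.003 (SE 0.13, adjusted *P* = 0.000968) with *Lrp2* sh2 (edgeR). The latter was just past an absolute log2FC of 1, as were 4.76% of all genes with *Lrp2* sh2. The ctrl sh libraries were higher in *Apoe* than those of any other group, and against the Uninjected libraries the log2FC was 0.12 (adjusted *P* = 0.696) with *Lrp2* sh1 and −0.49 (adjusted *P* = 0.147) with *Lrp2* sh2. The call with *Lrp2* sh1 was lost in 4 of 6 fits with a library left out (ctrl sh replicate 3 or any *Lrp2* sh1 library, adjusted *P* up to 0.0931) in a fit of all 18 libraries (adjusted *P* = 0.248), and with sex as a term (adjusted *P* = 0.267).

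*Scarb1* passed the test with *Lrp2* sh2, and the difference between the hairpins was not tested. It had 145, 144 and 136 CPM with ctrl sh, 96.3, 83.9 and 83.5 CPM with *Lrp2* sh2 and 158.9, 158.5 and 159.1 CPM with *Lrp2* sh1. The log2FC was −0.68 (SE 0.07, adjusted *P* = 0.000426) with *Lrp2* sh2, and this call held with each library left out and under all 8 other settings (−0.73 to −0.61). With *Lrp2* sh1 it was 0.16 (SE 0.05, 95% interval 0.05 to 0.28, adjusted *P* = 0.114, edgeR).

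*Abca1* had 570, 599 and 637 CPM with ctrl sh and 469, 460 and 469.7 CPM with *Lrp2* sh2. All *Lrp2* sh2 libraries were lower, with a log2FC of −0.36 (SE 0.07, 95% interval −0.51 to −0.20, adjusted *P* = 0.0068, edgeR). Against the Uninjected libraries, which had 490, 486 and 540 CPM, the log2FC was −0.13 (adjusted *P* = 0.313). With *Lrp2* sh1, *Abca1* had 650.5, 627 and 664 CPM and a log2FC of 0.10 (adjusted *P* = 0.427, edgeR). Against the Uninjected libraries this became 0.34, which passed (adjusted *P* = 0.0213, edgeR).

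*Mylip* had 75.4, 78.5 and 88.5 CPM with ctrl sh, 66.0, 63.6 and 62.1 CPM with *Lrp2* sh2 and 87.4, 72.8 and 85.4 CPM with *Lrp2* sh1. It was lower with *Lrp2* sh2 (log2FC −0.33, SE 0.08, adjusted *P* = 0.018, edgeR), a call lost when either *Lrp2* sh2 replicate 2 or replicate 3 of ctrl sh was left out (adjusted *P* up to 0.0673) and with sex as a term (adjusted *P* = 0.0549). *Cyp27a1* had 6.46, 7.81 and 5.40 CPM with ctrl sh and 11.4, 11.8 and 10.6 CPM with *Lrp2* sh1. The groups did not overlap, and the log2FC was 0.78 (SE 0.15, adjusted *P* = 0.0188, edgeR). The call was lost in 4 of 6 fits with a library left out (ctrl sh replicate 3 or any *Lrp2* sh1 library, adjusted *P* up to 0.0798). Against the Uninjected libraries, with 9.08, 14.7 and 12.6 CPM, it was −0.12 (adjusted *P* = 0.636).

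*Lpcat3* and *Abcg1*, the genes that rose most with nSREBP2, did not pass the test with either hairpin. *Lpcat3* had 37.9, 34.1 and 33.3 CPM with ctrl sh, 37.9, 36.0 and 37.0 CPM with *Lrp2* sh1 and 29.3, 31.1 and 33.2 CPM with *Lrp2* sh2. Its log2FC was 0.08 (adjusted *P* = 0.651) with *Lrp2* sh1 and −0.16 (adjusted *P* = 0.227) with *Lrp2* sh2. For *Abcg1*, these values were −0.02 (adjusted *P* = 0.917) and −0.07 (adjusted *P* = 0.535, edgeR). With *Lrp2* sh2 the libraries of both genes lay just below all ctrl sh libraries, and with *Lrp2* sh1 they overlapped. Against the Uninjected libraries, *Lpcat3* was higher with *Lrp2* sh1 (0.43, adjusted *P* = 0.0137, edgeR). The log2FC of *Nr1h2*, *Nr1h3* and *Soat1* lay between −0.13 and 0.17 in the hairpin comparisons, and none passed.

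**Figure D4:**
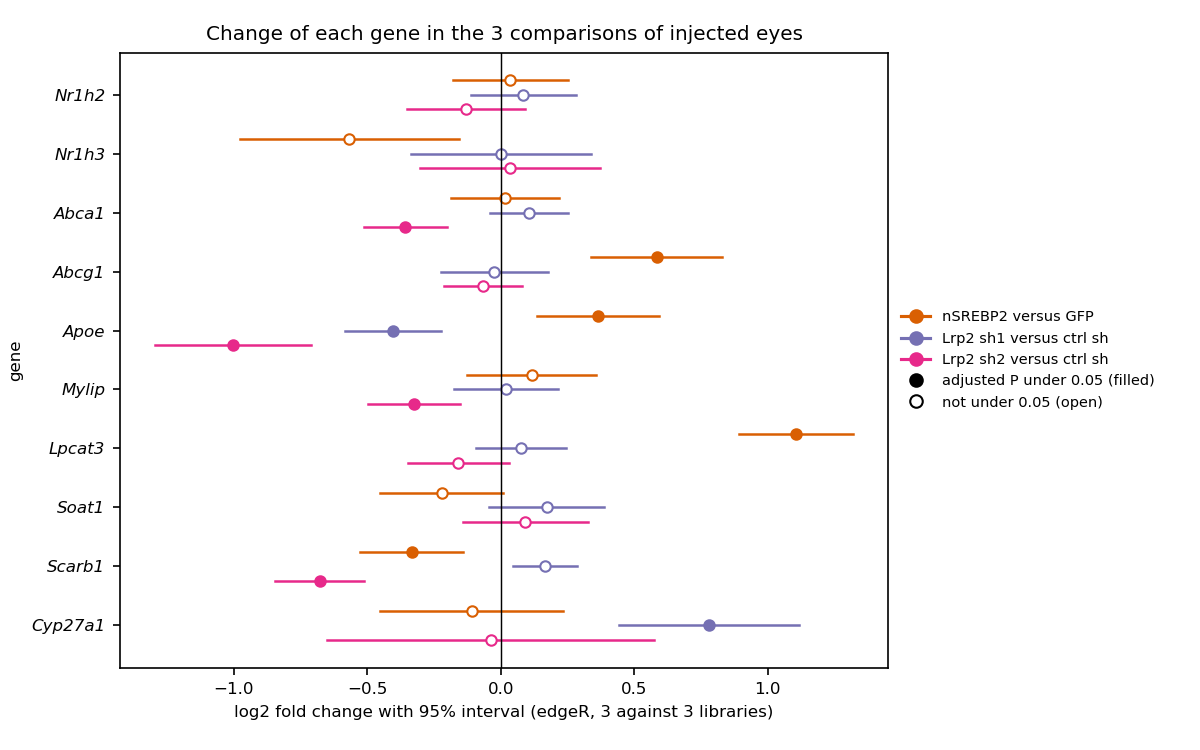
Log2 fold change of the 10 genes with 95% intervals for nSREBP2 (control GFP) and for both *Lrp2* hairpins (control ctrl sh), 3 against 3 libraries each, filled where the adjusted *P* was under 0.05. *Lpcat3* and *Abcg1* are filled with nSREBP2 alone, and *Apoe* is on opposite sides of 0 with nSREBP2 and with the hairpins.

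Other cells and other LXR targets also differed with *Lrp2* sh2. The RPE markers *Ttr* (−2.94), *Rdh5* (−1.58) and *Lrat* (−4.44) were lower, 7 of 8 endothelial markers were lower (1189 to 1246 against 1797 to 1904 CPM), 10 of 12 rod markers were higher (85.5 to 436 against 44.7 to 66.9 CPM) and 2 of 14 macrophage markers were higher (574.6 to 796 against 507.5 to 533 CPM). In addition 5 of 6 blood markers (352 to 441.2 against 639.4 to 805.8 CPM) and 3 of 8 melanocyte markers were lower, 3 of 8 fibroblast markers were higher, and of 10 tested markers of other retinal cells 3 were higher and 1 lower. Their part in the changes of *Apoe*, *Scarb1*, *Abca1* and *Mylip* was not tested. With *Lrp2* sh1, 0 RPE and 0 rod markers passed (edgeR, with 1 RPE and 0 rod markers lower at an unadjusted *P* under 0.05 and 0 by DESeq2), while 1 of 14 macrophage, 1 of 8 endothelial, 1 of 8 melanocyte, 1 of 6 blood and 1 of 9 tested other retinal markers were lower. Of the LXR targets outside the 10, 1 of 9 was higher (*Arl4c*, 0.84) and 6 lower with *Lrp2* sh2, and 3 of 10 were higher and 1 lower with *Lrp2* sh1. *Srebf1* had 156 ± 3.26 CPM with ctrl sh, 223.5 ± 13.4 CPM with *Lrp2* sh1 and 103 ± 3.69 CPM with *Lrp2* sh2 (SD, n = 3), with log2FC of 0.52 (adjusted *P* = 0.00184) and −0.59 (adjusted *P* = 0.000301, edgeR). *Pltp* was lower with both hairpins (−0.59 and −1.16). Of the 20 synthesis genes, 3 were lower with *Lrp2* sh1 and 1 with *Lrp2* sh2.

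The difference between the nSREBP2 change and each hairpin change was tested in a fit of all 18 libraries. It was past the threshold for 3 of the 10 genes against *Lrp2* sh1 (9.75% of 19744 genes tested) and for 3 against *Lrp2* sh2 (5.63%). *Lpcat3* differed by 1.02 (SE 0.13, adjusted *P* = 7.83e-05) from *Lrp2* sh1 and by 1.27 (SE 0.13, adjusted *P* = 9.64e-06) from *Lrp2* sh2. *Abcg1* differed by 0.60 (SE 0.15, adjusted *P* = 0.0175) and 0.65 (SE 0.15, adjusted *P* = 0.0151). *Apoe* differed by 1.37 (SE 0.25, adjusted *P* = 0.00242) from *Lrp2* sh2, and its difference of 0.76 from *Lrp2* sh1 had an adjusted *P* of 0.0591. *Scarb1* differed by −0.51 (SE 0.11, adjusted *P* = 0.0062, edgeR) from *Lrp2* sh1, and with sex as a term this had an adjusted *P* of 0.0879. Its difference of 0.35 from *Lrp2* sh2 had an adjusted *P* of 0.0727 (edgeR) and passed with sex as a term and by DESeq2. Each change was taken from its own control, so a gap between GFP and ctrl sh enters these differences. Mean CPM with GFP and ctrl sh was 28.8 and 35.1 for *Lpcat3*, and 40.3 and 51.0 for *Abcg1*. It was 685 and 1226 for *Apoe*, and 137.7 and 141.7 for *Scarb1*. Mean *Apoe* was 883.5 CPM with nSREBP2 and 926 CPM with *Lrp2* sh1. The part of the controls was not tested.

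The control viruses were compared with Uninjected eyes. With GFP 0 of the 10 genes passed (edgeR), where 0.662% of 17837 genes were higher and 1.82% lower. At an unadjusted *P* under 0.05, 2 were lower (*Mylip* and *Cyp27a1*), and DESeq2 called 1 (*Mylip*). *Mylip* had 93.3, 93.8 and 111 CPM in Uninjected and 69.5, 67.0 and 81.2 CPM in GFP libraries, which did not overlap, with a log2FC of −0.47 (adjusted *P* = 0.0568, edgeR). Without Uninjected replicate 1, *Mylip*, *Cyp27a1* and *Apoe* passed as lower. With ctrl sh, *Cyp27a1* was lower (−0.91, SE 0.21, adjusted *P* = 0.0395, edgeR) and none was higher (edgeR, with 3 higher at an unadjusted *P* under 0.05 and 0 by DESeq2), where 3.13% of 17822 genes were higher and 3.37% lower. The call of *Cyp27a1* held in 1 of 6 fits with a library left out, the one without Uninjected replicate 1.

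The level of *Abca1* over the 18 libraries was most like that of *Zfp68* (Pearson's r 0.932, Spearman's rho 0.938), *Maob* (r 0.893, rho 0.911) and *Mafg* (r 0.874, rho 0.889) among 10855 genes with a mean log2 CPM of at least 3. These are descriptions over libraries that share groups, cell makeup and scaling. With nSREBP2, *Maob* had a log2FC of −0.54 and *Zfp68* of 0.003, against 0.02 for *Abca1*.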

How the data were processed

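RNA-seq counts per gene were deposited for 18 libraries. The authors depleted ribosomal RNA, made directional libraries, and mapped and counted the reads with STAR on GRCm38. The counting annotation and strand setting are not given in the sources used here, so reads of overlapping genes may be shared. The deposited values are raw counts of 52636 genes. Totals of 8921885 to 13696934 counts limit precision for low genes, and a count of 0 allows up to 3 counts.

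Counts were filtered (filterByExpr), scaled by TMM and tested over all genes with edgeR 4.0.16 in R 4.3.3 (quasi-likelihood test, two-sided, Benjamini-Hochberg adjustment), within the 6 libraries of each comparison. Differences between comparisons used all 18 libraries. The tests were tried on simulated counts first. CPM and RPKM (exon lengths of GENCODE M21) were computed from the counts. Each library is a separate mouse.

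Alternatives were DESeq2 1.42.0, its size factors, no filter, a floor of 10 counts per library, a single fit of all 18 libraries, sex as a term, a replicate block, Uninjected libraries as the control, and each library left out in turn. Replicate numbers did not pair the samples. The named genes are the 10 genes, the manipulated genes, up to 4 genes of each sterol list by size of change with nSREBP2, and the 3 genes most like *Abca1*, and some genes that this rule names are not reported here. *Rpe65*, *Emg1*, *Srebf1*, the RPE markers and the hairpin values of *Pltp* and other genes of the sterol lists were added. The genes and lists were chosen with earlier results of these data known. Promoters and the miRNA are from RefSeq GRCm38.p6.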

Additional observations from a re-analysis of the deposited data

Results flagged for a closer look

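The change with nSREBP2 differed from that with *Lrp2* sh1 for 3 of the 10 genes (9.75% of 19744 genes tested) and from that with *Lrp2* sh2 for 3 (5.63%), by a test of the difference itself (edgeR, 18 libraries, adjusted over all genes). *Lpcat3* differed by 1.02 on the log2 scale from *Lrp2* sh1 and by 1.27 from *Lrp2* sh2. *Abcg1* differed by 0.60 and 0.65. The difference of *Abcg1* from *Lrp2* sh1 had an adjusted *P* of 0.0556 without GFP replicate 2, 0.0529 without nSREBP2 replicate 1 and 0.054 without *Lrp2* sh1 replicate 2. *Scarb1* differed by −0.51 from *Lrp2* sh1, and *Apoe* by 1.37 from *Lrp2* sh2. The hairpin changes share the ctrl sh libraries, so the values for *Lrp2* sh1 and *Lrp2* sh2 are not independent of each other. The nSREBP2 change was taken from GFP, so a gap between GFP and ctrl sh is part of each difference.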

How the results depend on the processing

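Of 440 values of single genes under other settings, 390 kept direction and call and 20 changed sign. With the sign kept, 18 gained and 12 lost a call. Values that changed sign were counted there alone, even where the call also changed. Against Uninjected, *Mylip* with nSREBP2 changed sign and gained a call. *Apoe* and *Cyp27a1* with *Lrp2* sh1 changed sign and lost theirs. With a library left out, 468 of 540 kept both and 33 changed sign, and with the sign kept 14 gained and 25 lost a call. The cause was not tested. *Lpcat3* and *Abcg1* kept their calls with nSREBP2 under every setting run. For nSREBP2 versus GFP, the genes called lower were 2 without the filter and in a single fit of 18 libraries, 0 with sex as a term and 3 against Uninjected, and all genes called were 2178 with sex as a term (3770 as reported). With sex as a term *Abca1* became −0.061 and *Cyp27a1* 0.26, and against Uninjected *Nr1h2* became −0.051 and *Mylip* −0.36.

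For *Lrp2* sh1, all genes called were 949, against 1441 without the filter and 4354 with Uninjected as the control. The 10 genes gave 0 higher and 0 lower in a fit of 18 libraries, 0 lower with sex as a term, and 2 higher and 0 lower against Uninjected. *Nr1h3* became −0.0021 with at least 10 counts. Against Uninjected, signs changed for *Nr1h2* (−0.010), *Nr1h3* (−0.32), *Abcg1* (0.18), *Apoe* (0.12), *Mylip* (−0.29) and *Cyp27a1* (−0.12). For *Lrp2* sh2 they changed for *Abcg1* (0.034) and *Cyp27a1* (0.17) with sex as a term, and for *Nr1h3* (−0.29), *Abcg1* (0.13) and *Lpcat3* (0.19) against Uninjected.

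For GFP versus Uninjected, 1 gene was lower under DESeq2, no filter, at least 10 counts, 18 libraries, sex as a term and the replicate block. All genes called were 442, against 841 (DESeq2), 1093 (no filter), 1722 (18 libraries) and 1225 (sex as a term), and *Nr1h3* became −0.0042 (at least 10 counts) and −0.032 (sex as a term). For ctrl sh versus Uninjected they were 1157, against 1736 (no filter), 2870 (18 libraries) and 2456 (sex as a term), with 1 gene higher under the latter 2. With sex as a term, the difference from *Lrp2* sh1 became −0.0063 for *Mylip* and that from *Lrp2* sh2 0.090 for *Cyp27a1*. DESeq2 called 5 differences from *Lrp2* sh2.

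Replicate numbers did not pair the samples (correlations of same-numbered libraries −0.263 to 0.259). With the replicate block, *Lrp2* sh1 called 492 genes and ctrl sh versus Uninjected 244, with 0 of the 10 lower there.

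With 1 library left out, nSREBP2 gave 2 to 3 genes higher, 0 to 3 lower and 2481 to 4097 of all genes. *Lrp2* sh1 gave 0 to 2 higher, 0 to 1 lower and 364 to 1298 of all genes, and *Lrp2* sh2 0 to 0 higher, 3 to 4 lower and 2019 to 2727 of all genes (3268 as reported). GFP versus Uninjected gave 0 to 3 lower and 66 to 740 of all genes, and ctrl sh versus Uninjected 0 to 1 lower and 140 to 998. Differences were called for 2 to 4 genes from *Lrp2* sh1 and 3 to 4 from *Lrp2* sh2. Ranges that crossed 0 were, with nSREBP2, *Nr1h2* (−0.042 to 0.14) and *Abca1* (−0.034 to 0.11). With *Lrp2* sh1 they were *Nr1h3* (−0.047 to 0.089), *Mylip* (−0.032 to 0.099) and *Abcg1* (−0.095 to 0.073), and with *Lrp2* sh2 *Nr1h3* (−0.017 to 0.12) and *Cyp27a1* (−0.40 to 0.18). Against Uninjected they were *Nr1h3* for GFP (−0.083 to 0.099) and *Soat1* (−0.12 to 0.080) and *Scarb1* (−0.071 to 0.0036) for ctrl sh. For the differences they were *Abca1* (−0.15 to 0.011), *Nr1h2* (−0.14 to 0.048) and *Mylip* (−0.025 to 0.18) from *Lrp2* sh1 and *Cyp27a1* (−0.29 to 0.30) from *Lrp2* sh2.

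Low counts limit *Nr1h3*, *Cyp27a1* and *Mir33*. Each group had 3 libraries, and sex was confounded with nSREBP2. The summed RPE markers were low with GFP, nSREBP2 and *Lrp2* sh2, and markers of other cells differed between groups. A change in these bulk libraries, whether small or as large as that of *Lpcat3*, therefore cannot be assigned to the RPE.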
